A study of Mus musculus with 8 samples.

Results

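The genes described here are 44 genes of the connective tissue, chosen by name from the 49315 genes in the deposited tables: collagen chains, elastic-fiber proteins, proteoglycans, collagen-crosslinking enzymes, adhesive and matricellular proteins, and genes of fibroblasts and their growth factors. Their symbols were matched to Ensembl identifiers, all 44 were counted in every library, and all 44 passed the filter on low counts. Poly(A) RNA was sequenced from whole esophagus of mice labelled WT in 8 libraries. The 3 SDS libraries came from mice given the household detergent sodium dodecyl sulfate at 0.5% in their drinking water for 14 days. The 5 control libraries came from mice on untreated water at the same day, and no transgene, mutation or other agent is named for either group. No source used here gives strain, sex or age. Nothing in the labels ties a library to a mouse of its own. The p-values therefore weigh the difference between groups against the spread between these libraries, which may differ from that between mice. Only 6 of the 44 genes encode chains of fibril-forming collagens, and the name "fibrillar matrix and fibroblast genes" is therefore narrower than the list.

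Fibroblasts secrete procollagen chains that are trimmed and assembled outside the cell into fibrils, which lysyl oxidases then crosslink. Types I and III collagen make up most of the fibril mass beneath the esophageal epithelium, type V collagen limits fibril thickness, and small leucine-rich proteoglycans such as decorin coat the fibril surface. Transforming growth factor beta (TGF-beta) is a classic inducer of matrix genes in fibroblasts, platelet-derived growth factor (PDGF) receptors drive fibroblast growth, and collagen deposition under the epithelium is a known feature of long-standing esophageal inflammation.

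The sequences before the start sites of 3 members are shown because these members contrast in the pattern described below. Col3a1 and Col1a2, chains of types III and I collagen, were 20.7-fold and 11.4-fold apart between SDS libraries 2 and 3. Dpt, encoding the collagen-binding protein dermatopontin, had the smallest fold of all members between the highest and lowest of the 3 SDS libraries. They are the 250 bases upstream of the start in RefSeq on GRCm38.p6, plus strand, at chr1:45311288-45311537 for Col3a1, chr6:4505368-4505617 for Col1a2 and chr1:164796413-164796662 for Dpt, and 29 of the 44 members had such an entry. The RefSeq starts of Col1a2 and Dpt lie downstream of the gene starts in the deposited tables. Capitals mark 3 motifs searched on both strands. The first is CCAAT, a common promoter element. The second is TATAAA, the core letters of many boxes that position the start of transcription. The third is GGGCGG, bound by zinc-finger factors of the Sp family.
Col3a1: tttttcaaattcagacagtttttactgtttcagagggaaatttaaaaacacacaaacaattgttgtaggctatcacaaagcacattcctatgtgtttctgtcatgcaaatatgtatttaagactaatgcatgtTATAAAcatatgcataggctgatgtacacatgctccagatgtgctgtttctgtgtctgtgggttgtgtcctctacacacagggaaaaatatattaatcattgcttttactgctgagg
Col1a2: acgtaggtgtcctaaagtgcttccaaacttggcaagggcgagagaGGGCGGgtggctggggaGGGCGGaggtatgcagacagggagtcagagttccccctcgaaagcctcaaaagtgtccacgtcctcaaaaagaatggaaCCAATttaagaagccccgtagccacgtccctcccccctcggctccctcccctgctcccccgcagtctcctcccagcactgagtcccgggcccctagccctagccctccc
Dpt: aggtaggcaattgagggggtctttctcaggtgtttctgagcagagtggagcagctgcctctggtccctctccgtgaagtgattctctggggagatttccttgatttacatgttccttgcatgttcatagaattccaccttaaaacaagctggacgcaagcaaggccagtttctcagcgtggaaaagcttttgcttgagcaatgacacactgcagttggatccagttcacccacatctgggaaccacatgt
The Col3a1 window held TATAAA, beginning 117 bases before the start, and neither of the other motifs. The Col1a2 window held CCAAT, beginning 109 bases before the start, and GGGCGG at 2 places. The Dpt window held none of the 3. Of 32851 mouse promoter windows of the same length, 12.4% held TATAAA, 33.9% held CCAAT and 32.7% held GGGCGG. A match describes letters in a window and not a bound site.

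The libraries held between 22033866 and 29802362 counts, and the smallest count of a member in any library was 49, the largest 90194. Krt13, a keratin of the upper layers of the esophageal lining, had 41997, 44538 and 71974 CPM (counts scaled to a common library total) in SDS libraries 1 to 3, and between 19388 and 62960 CPM in the controls, as the tissue label says. The fibroblast genes Dcn and Pdgfra were present in every library. The 44 members together took 0.655%, 1.40% and 0.242% of all counts in SDS libraries 1, 2 and 3, against 0.606%, 0.476%, 0.441%, 0.869% and 0.572% in controls 1 to 5. SDS library 2 thus lay above every control and SDS library 3 below every control, while SDS library 1 lay among them. These libraries stood apart for most members, and every fold change below rests on both of them.

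No member passed the test of SDS against control. Across the 17179 genes tested, 107 genes (0.623%) were called higher in SDS and 73 genes (0.425%) lower (edgeR quasi-likelihood test, Benjamini-Hochberg adjusted p under 0.05), so a count of 0 of 44 in either direction is close to the background. At an unadjusted p under 0.05, 2 members were higher, Lox and Pi16, and 0 were lower, against 9.98% higher and 8.53% lower among all genes tested. In 0 members did every SDS library lie above every control, a separation shown by 6.49% of all genes, and in 0 members did every SDS library lie below every control, shown by 6.89%. DESeq2 called 1 member, Lox, with 5.21% of its genes called higher. The fitted log2 fold changes of the members ran between -0.72 and 2.23, with a median of 0.12 against -0.005 over all genes. Of the 44, 27 (61.4%) were above 0, against 49.3% of all genes. That direction turned with limma-voom, where 16 of the 44 were above 0 and the median was -0.08. In this bulk tissue, fewer or more fibroblasts cannot be told apart from less or more matrix RNA per fibroblast, between libraries as between groups.

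The members differed widely among the SDS libraries. Their median SD of log2 CPM there was 1.23, against 0.28 over all genes tested, while their median absolute log2 fold change was 0.32, against 0.23 over all genes tested. In 28 of the 44 members (63.6%), SDS library 2 was the highest of all 8 libraries, against 16.9% of all genes tested. In 39 members (88.6%), SDS library 3 was the lowest, against 23.4% of all genes. In 26 members (59.1%) SDS library 2 was above and SDS library 3 below every control at once, a pattern held by 5.31% of all genes. The order SDS 2, SDS 1, SDS 3 from high to low appeared in 40 members, against 24.2% of all genes. A fold of 5 or more between SDS libraries 2 and 3 was found in 23 members, against 2.95% of all genes. SDS library 1 lay inside the control range in 31 members (70.5%), above it in 8 (18.2%) and below it in 5 (11.4%). Over all genes these shares were 61.0%, 19.7% and 19.3%. On the log2 CPM scale the median member stood 0.11 above the control mean in SDS library 1, 0.82 above it in SDS library 2 and -1.36 relative to it in SDS library 3.

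The members' median SD in the controls was 0.33, against 0.26 over all genes tested. The median standard error (SE) of a member's log2 fold change was 0.47, against 0.22 over all genes. Among the controls, control 4 stood out as the highest in 37 of the 44 members, against 32.1% of all genes.

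**Figure D1:**
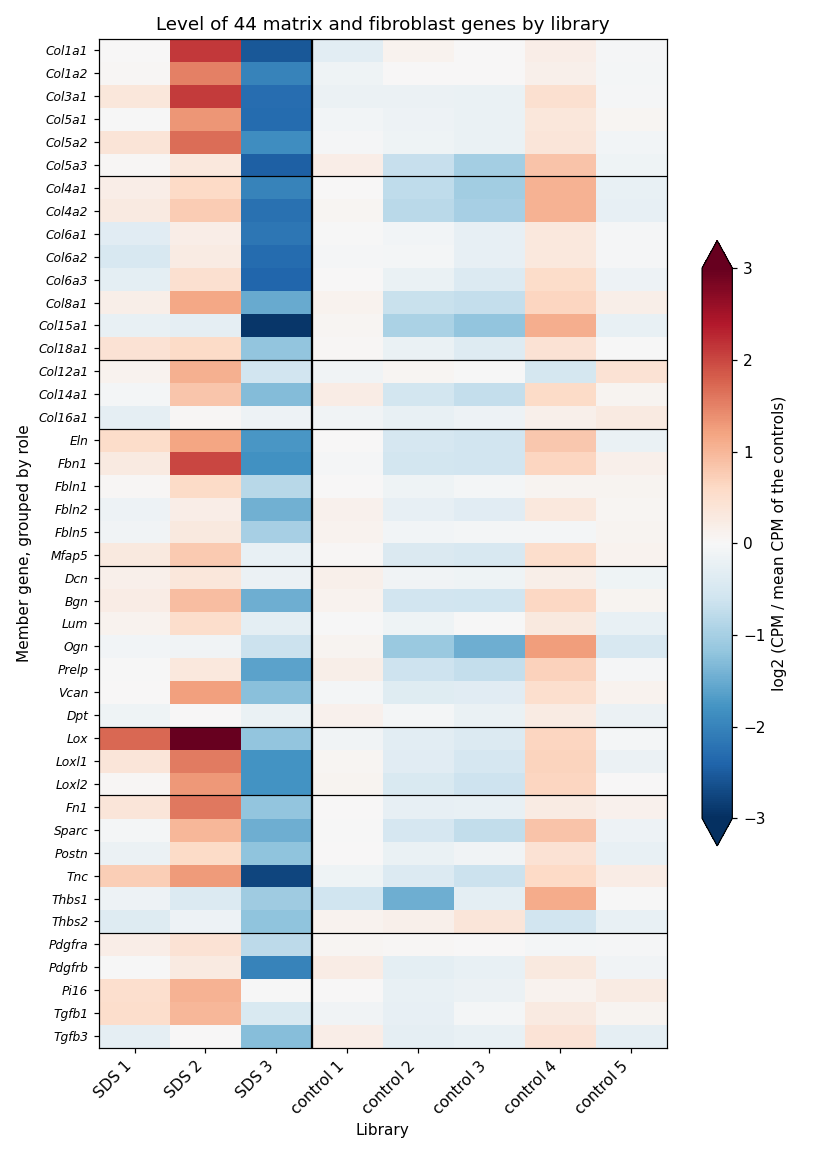
Level of each of the 44 members (rows, grouped by role with the groups parted by lines) in the 3 SDS and 5 control libraries (columns), as log2 of CPM over the mean CPM of the controls, with color cut at -3 and 3. The SDS 2 column is mostly red and the SDS 3 column mostly blue, SDS 3 being the lowest library in 39 of 44 rows, and control 4 is the highest control in 37 rows.

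Fibrillar collagens had the widest median fold between SDS 2 and SDS 3 of the 8 roles, 11.98. The 6 chains summed to 1788, 5692 and 334 CPM in SDS libraries 1 to 3, against 1375, 1445, 1413, 1969 and 1499 CPM in controls 1 to 5. None of the 6 passed the test, and 5 had a fitted change above 0, with a median of 0.56.

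Col1a1, the main chain of type I collagen (chromosome 11, 94936224 to 94953042), had 191, 833 and 32.8 CPM in SDS libraries 1 to 3, against 153, 204, 191, 219 and 185 CPM in controls 1 to 5. The controls fell within a narrow band, SDS 1 inside it, SDS 2 far above and SDS 3 far below. Its means were 352 ± 424 CPM in SDS (SD, n = 3) and 190.5 ± 24.6 CPM in controls (SD, n = 5), and the log2 fold change of 0.89 ± 0.74 (SE) was not called (edgeR adjusted p = 0.573).

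Col1a2, the partner chain of type I collagen (chromosome 6, 4504814 to 4541544), had 421, 1161 and 102 CPM in the SDS libraries, against 376, 413, 413, 454 and 394 CPM in the controls. Here too the groups overlapped, and SDS 2 and SDS 3 lay outside the controls on opposite sides (log2 fold change 0.45 ± 0.57, SE; edgeR adjusted p = 0.730). Col3a1, the chain of type III collagen (chromosome 1, 45311538 to 45349706), had 952, 3169 and 153 CPM in SDS, against 655, 658, 649, 1038 and 730.5 CPM in controls. Control 4 lay above SDS 1, SDS 2 was 20.7-fold above SDS 3, and the fitted change of 0.93 ± 0.70 (SE) was not called (edgeR adjusted p = 0.526).

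Col5a2, a chain of type V collagen that lies 24614 bases from Col3a1 on chromosome 1, had 131, 321 and 27.7 CPM in SDS, against 98.0, 92.3, 87.0, 129 and 94.9 CPM in controls. Col5a1, the other main chain of type V collagen, had 72.8, 183 and 14.8 CPM in SDS, against 68.9, 65.7, 63.6, 92.8 and 76.1 CPM in controls. Both repeat the pattern of types I and III, with SDS 2 above SDS 3 by 11.6-fold for Col5a2 and 12.4-fold for Col5a1. Col5a3, a minor chain, differed from the other 5 in that SDS 2, at 24.5 CPM, lay below control 4, at 35.9 CPM.

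**Figure D2:**
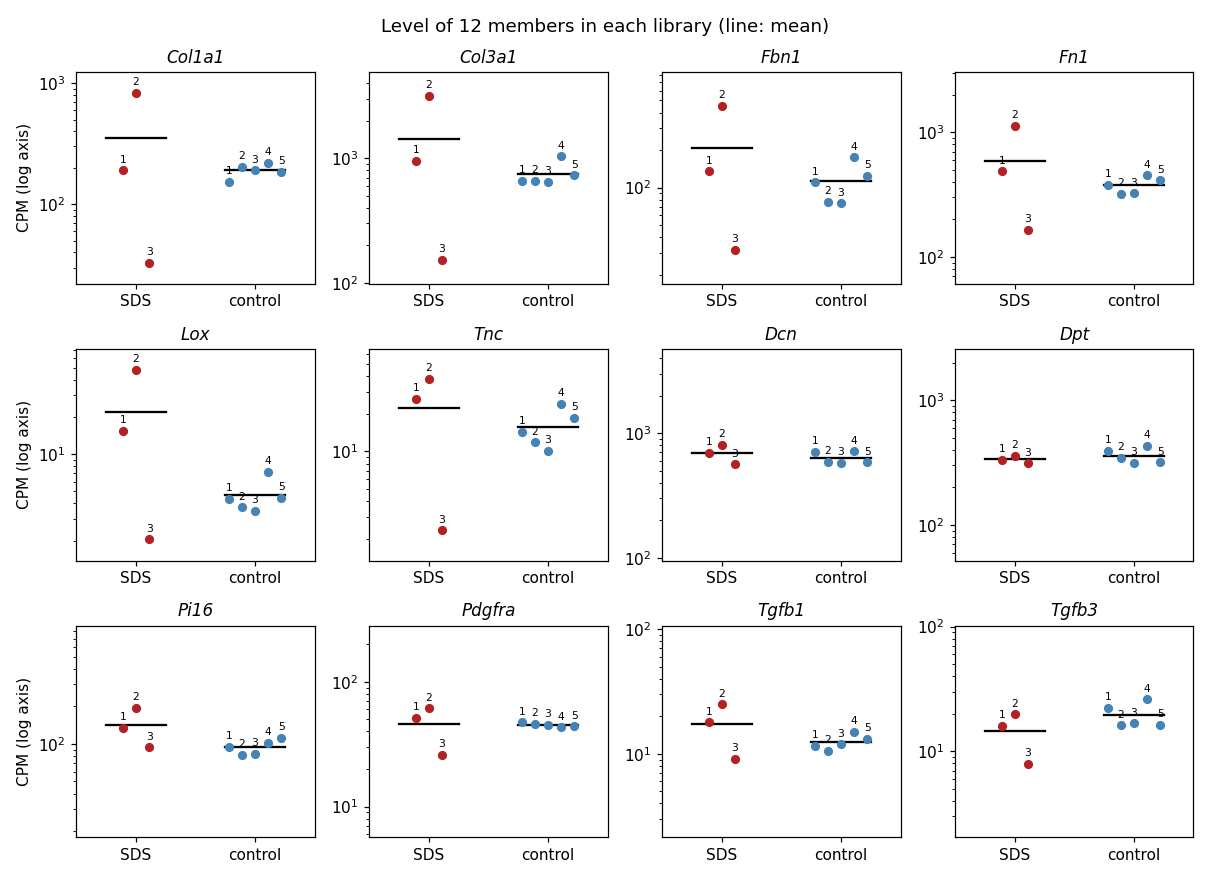
CPM (log axis, a panel per gene) of 12 members in each SDS library (red, left) and control library (blue, right), with library numbers and the mean of each group as a line. Col1a1, Col3a1, Fbn1, Fn1, Lox and Tnc scatter widely in SDS, with SDS 2 highest and SDS 3 lowest, while Dcn and Dpt stay between 312 and 805 CPM in all 8 libraries.

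Basement membrane, beaded and network collagens were spread less widely, and control 4 rather than SDS 2 was often their highest library. The 8 genes summed to 803, 1188 and 198 CPM in the SDS libraries, against 887, 713, 626, 1361 and 823 CPM in the controls. SDS 3 was the lowest library in 8 of 8, SDS 2 the highest in 2, and none was called (median log2 fold change -0.18). Col4a1, a chain of the basement membrane network of vessels and epithelium, had 149, 199 and 32.2 CPM in SDS, against 131, 76.8, 63.4, 267 and 112 CPM in controls. Its neighbor Col4a2, which shares a head-to-head start region with it on chromosome 8, had 109, 154 and 19.1 CPM in SDS, against 93.8, 51.3, 45.1, 185 and 75.8 CPM in controls. The controls of this pair were themselves 4.22-fold and 4.11-fold apart, with control 4 at the top.

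Col6a3, a chain of the beaded filaments that surround cells, had 97.6, 166 and 23.0 CPM in SDS, against 119.9, 103, 88.7, 175 and 107 CPM in controls. SDS 2 lay inside the control range and SDS 3 below it, giving a log2 fold change of -0.31 ± 0.51 (SE; edgeR adjusted p = 0.797). SDS 2 also lay inside the control range for the other type VI chains. Col6a1 had 175, 256 and 49.0 CPM in SDS, against 188 to 277 CPM in controls, and Col6a2 had 147, 246 and 41.4 CPM in SDS, against 173 to 257 CPM in controls. Col15a1, a basement membrane collagen of vessels and muscle, had the lowest fitted change of all members, -0.72 ± 0.67 (SE; edgeR adjusted p = 0.619), with 39.4, 38.6 and 6.13 CPM in SDS, against 48.6, 24.0, 20.4, 98.4 and 40.0 CPM in controls. Col18a1, the source of endostatin, and Col8a1, a network collagen of vessels, had fitted changes of 0.13 and 0.30.

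Fibril-associated collagens, which bridge fibrils to their surroundings, included 3 members. Col12a1 had 28.1, 55.2 and 17.6 CPM in SDS, against 24.5, 27.3, 26.0, 18.3 and 35.4 CPM in controls (log2 fold change 0.36 ± 0.34, SE; edgeR adjusted p = 0.632). SDS 2 alone stood outside the controls by a wide margin, and control 4, the highest control for most members, was the lowest control here. Col14a1 had 79.1, 146 and 33.4 CPM in SDS, against 49.6 to 122 CPM in controls. Col16a1 had 29.6, 36.7 and 32.1 CPM in SDS, against 30.7 to 42.8 CPM in controls, and it did not share the spread: its SDS 2 and SDS 3 libraries were 1.14-fold apart.

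Elastic-fiber genes summed to 564, 1056 and 213 CPM in SDS libraries 1 to 3, against 519, 399.9, 389, 696 and 521 CPM in the controls. Of these 6 genes 4 had a fitted change above 0 and none was called. Fbn1, encoding the microfibril protein fibrillin-1, had 135, 451 and 31.8 CPM in SDS, against 110.2, 77.2, 74.9, 175 and 124 CPM in controls. It was the widest of the 6, with SDS 2 lying 14.2-fold above SDS 3 and a log2 fold change of 0.88 ± 0.66 (SE; edgeR adjusted p = 0.531). Eln, encoding elastin, had 126, 197 and 25.9 CPM in SDS, against 86.9, 61.5, 58.2, 152 and 75.3 CPM in controls (log2 fold change 0.43 ± 0.56, SE; edgeR adjusted p = 0.738). Mfap5, a microfibril-associated glycoprotein and a marker of adventitial fibroblasts, had 57.9, 81.7 and 40.8 CPM in SDS, against 48.3, 35.0, 34.1, 68.5 and 51.3 CPM in controls. For Mfap5 all but SDS 2 fell inside the control range (log2 fold change 0.34 ± 0.28, SE; edgeR adjusted p = 0.565). The fibulins Fbln1, Fbln2 and Fbln5, which link elastic fibers to cells and basement membranes, had fitted changes of 0.04, -0.32 and -0.18.

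Proteoglycans and their partners held several of the steadiest members. Dcn, encoding decorin, was the most abundant member per length, with 331 FPKM (CPM per kilobase of deposited exon length) in SDS and 304 FPKM in controls. It had 699, 805 and 562 CPM in SDS, against 705, 587, 581, 716 and 583 CPM in controls. SDS 2 and SDS 3 lay just outside the controls, 1.43-fold apart (log2 fold change 0.12 ± 0.16, SE; edgeR adjusted p = 0.744). Lum, encoding the fibril-binding proteoglycan lumican and lying 47338 bases from Dcn on chromosome 10, had 162, 219 and 123 CPM in SDS, against 149.9, 139, 149.6, 186 and 130.0 CPM in controls (log2 fold change 0.15 ± 0.19, SE; edgeR adjusted p = 0.727). Dpt had 331, 360.1 and 312 CPM in SDS, against 392, 347, 314, 429 and 318 CPM in controls, with the SDS libraries 1.15-fold apart at most.

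The remaining 4 of this role were wider. Vcan, encoding the large proteoglycan versican, had 20.8, 48.8 and 8.72 CPM in SDS, against 16.1 to 29.2 CPM in controls. Bgn, encoding biglycan, had 203, 331 and 63.3 CPM in SDS, against 116 to 265 CPM in controls. Prelp, a basement membrane anchor protein, had 68.0, 85.1 and 22.6 CPM in SDS, against 42.1 to 112 CPM in controls. Ogn, encoding the small proteoglycan osteoglycin, ran the other way, being steady in SDS (46.1, 45.6 and 31.5 CPM) and 6.56-fold apart across the controls (52.2, 22.6, 17.8, 117 and 35.1 CPM). The strand setting of the counting is not given in the sources used here, so reads in the stretch shared by Ogn and Cenpp, which overlaps it on the opposite strand, cannot be assigned to either, and Cenpp reached at most 2.55 CPM in any library.

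**Figure D3:**
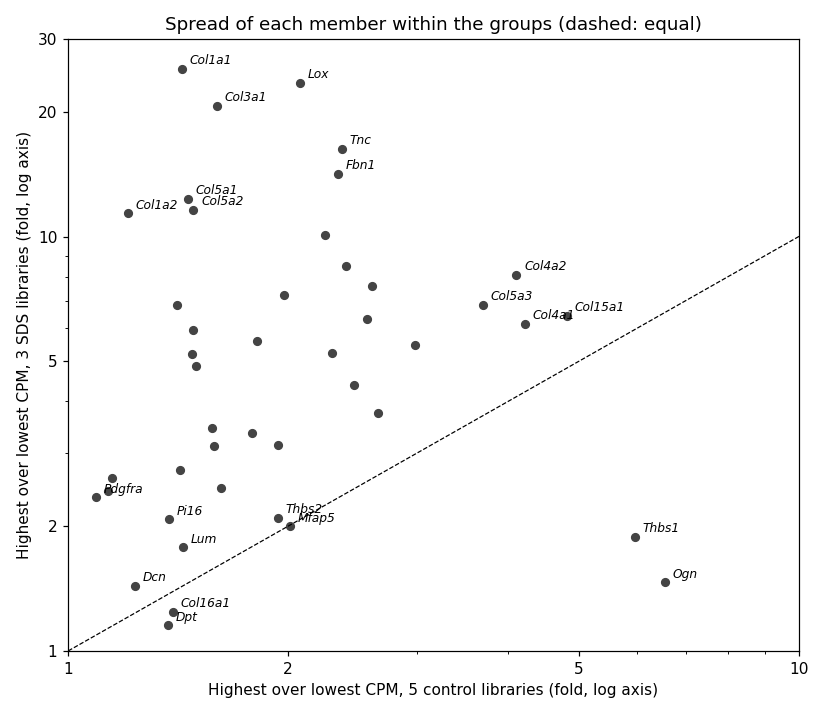
Highest over lowest CPM of each member (points) among the 3 SDS libraries (vertical, log axis) and among the 5 control libraries (horizontal, log axis), with a dashed line where both are equal. Of the 44 points 39 (88.6%) lie above the line, against 41.5% of all genes tested. Col1a1, Lox and Col3a1 are highest, while Ogn and Thbs1 lie far below the line.

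Collagen-crosslinking enzymes included the member with the largest fitted change. Lox encodes lysyl oxidase, which oxidizes lysines of collagen and elastin so that they can crosslink. It had 15.4, 48.1 and 2.04 CPM in SDS libraries 1 to 3, against 4.33, 3.71, 3.47, 7.20 and 4.46 CPM in controls 1 to 5. SDS 1 and SDS 2 stood above every control and SDS 3 below every control, so the groups overlapped. The means were 21.8 ± 23.7 CPM in SDS (SD, n = 3) and 4.63 ± 1.49 CPM in controls (SD, n = 5), and the log2 fold change of 2.23 ± 0.73 (SE) missed the threshold (edgeR adjusted p = 0.153). A similar log2 fold change, 2.24, was called by DESeq2 (adjusted p = 0.0217), the adjusted p over 16 alternatives running between 0.0104 and 0.576. Loxl1, which crosslinks elastin, had 58.4, 133 and 13.2 CPM in SDS, against 32.0 to 71.9 CPM in controls, and Loxl2, which crosslinks type IV collagen, had 29.3, 69.9 and 8.22 CPM in SDS, against 18.5 to 44.5 CPM in controls. For both, SDS 1 lay inside the control range.

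Adhesive and matricellular proteins were mixed, 3 above 0 and 3 below 0 with none called. Fn1, encoding fibronectin, the adhesive protein of provisional matrix, had 486, 1128 and 165 CPM in SDS, against 379.9, 320.2, 324, 451 and 412 CPM in controls. SDS 1 lay just above and SDS 2 far above the controls, with SDS 3 below them (log2 fold change 0.65 ± 0.48, SE; edgeR adjusted p = 0.517). Tnc, encoding tenascin-C, which appears in healing tissue, had 26.4, 38.1 and 2.34 CPM in SDS, against 14.4, 11.8, 10.1, 24.0 and 18.5 CPM in controls. It followed the same order with a fold of 16.3 between SDS 2 and SDS 3 (log2 fold change 0.50 ± 0.66, SE; edgeR adjusted p = 0.742). Postn, encoding periostin, a matricellular protein that responds to type 2 cytokines, had 169, 286 and 82.6 CPM in SDS, against 192, 166, 177, 258 and 164 CPM in controls (log2 fold change -0.09 ± 0.35, SE; edgeR adjusted p = 0.918). Sparc, encoding osteonectin, had 457, 943 and 172 CPM in SDS, against 285 to 850.5 CPM in controls.

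The thrombospondins, matricellular proteins known to limit vessel growth, departed from the common pattern in part. Thbs2 had 20.7, 24.7 and 11.8 CPM in SDS, against 29.1, 30.2, 35.3, 18.2 and 23.3 CPM in controls. Its SDS libraries kept the common order and SDS 3 was the lowest of all, but SDS 2 lay inside the control range. Control 4, usually the highest control, was its lowest control, and all 3 SDS libraries lay below controls 1, 2 and 3 (log2 fold change -0.51 ± 0.28, SE; edgeR adjusted p = 0.365). Thbs1 had 20.6, 17.2 and 10.9 CPM in SDS, against 14.9, 8.23, 18.7, 49.1 and 22.7 CPM in controls. It was one of the few members in which SDS 1 exceeded SDS 2, and its controls were 5.96-fold apart.

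Fibroblast receptors and growth factors differed between SDS 2 and SDS 3 by 2.08-fold to 4.86-fold. Pdgfra, the PDGF receptor that marks most fibroblasts, had 51.5, 61.2 and 26.1 CPM in SDS, against 47.2, 46.2, 45.4, 43.3 and 43.9 CPM in controls. The controls were nearly level, with an SD of 1.63 CPM, and SDS 1 and SDS 2 lay above them and SDS 3 below (log2 fold change 0.03 ± 0.23, SE; edgeR adjusted p = 0.955). Pdgfrb, the PDGF receptor of pericytes and fibroblasts, had 23.6, 28.6 and 5.88 CPM in SDS, against 27.5, 19.5, 20.3, 29.1 and 22.2 CPM in controls (log2 fold change -0.29 ± 0.42, SE; edgeR adjusted p = 0.762).

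Pi16, a marker of adventitial fibroblasts, had 134, 195 and 93.8 CPM in SDS, against 95.1, 81.4, 83.3, 102 and 112 CPM in controls. SDS 1 and SDS 2 were above every control and SDS 3 lay within the controls, the one gene of this role for which SDS 3 was not the lowest library. Its log2 fold change of 0.57 ± 0.22 (SE) had an unadjusted p of 0.0288 and was not called (edgeR adjusted p = 0.210). Tgfb1, encoding TGF-beta 1, had 17.8, 25.0 and 9.13 CPM in SDS, against 11.5, 10.6, 11.9, 15.1 and 13.2 CPM in controls (log2 fold change 0.47 ± 0.28, SE; edgeR adjusted p = 0.415). Tgfb3, encoding TGF-beta 3, had 16.03, 19.7 and 7.97 CPM in SDS, against 22.2, 16.1, 16.8, 26.0 and 16.2 CPM in controls (log2 fold change -0.42 ± 0.29, SE; edgeR adjusted p = 0.502). The fitted changes of these related ligands thus had opposite signs, though neither passed the test. Ttll5 overlaps Tgfb3 on the opposite strand by 5150 bases and reached 11.9 CPM, so reads there could belong to either gene.

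**Figure D4:**
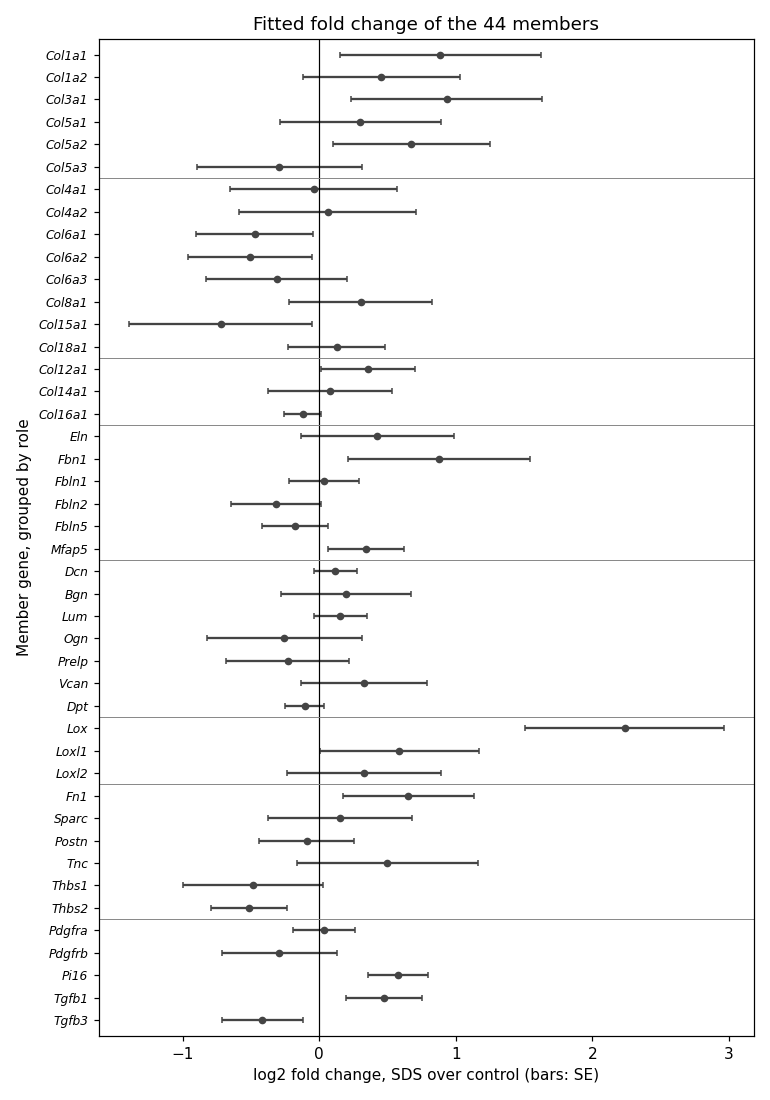
Fitted log2 fold change, SDS over control, of the 44 members (points) with the SE (bars), grouped by role. Lox stands alone near 2.23, and the bars of most collagen genes cross 0 or come close to it.

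These fold changes turned on the libraries at the extremes. Without SDS 2, only 4 of the 44 members had a fitted change above 0 and the median was -0.46, and the sign turned for Col1a1 (-0.77), Col3a1 (-0.43), Fbn1 (-0.43) and Fn1 (-0.21). Without SDS 3, 35 members were above 0, the median was 0.49, and 3 members were called higher: Lox (2.79, edgeR adjusted p = 0.0104), Pi16 (0.81, adjusted p = 0.0399) and Tgfb1 (0.79, adjusted p = 0.0418). In that fit 4.98% of all genes tested were called higher. Without control 4, 33 members were above 0 and the median was 0.32, with none called.

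Ratios between members of a library are free of the library's scaling, and 14 were compared on the log2 scale, per length, with exact two-sided permutation tests whose smallest possible p is 0.0357. The ratio of Lox to Col1a1 was 0.110, 0.0787 and 0.0851 in SDS libraries 1 to 3, against 0.0386, 0.0248, 0.0248, 0.0448 and 0.0330 in controls 1 to 5. Every SDS library lay above every control, SDS 3 included, although Lox itself was lower there than in any control. In SDS 3, Lox had 49 counts and stood at 0.441 of its control mean, and Col1a1 at 0.172. Other members fell less there, Fn1 to 0.437 and Dcn to 0.886 of the control mean. The place of SDS 3 thus depends on Col1a1 as the denominator, and Lox was not compared with other members. The mean log2 ratio was -3.47 ± 0.25 in SDS (SD, n = 3) and -4.95 ± 0.38 in controls (SD, n = 5), a difference of 1.49 (exact permutation p = 0.0357, adjusted over the 14 ratios 0.250).

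The ratio of Tgfb3 to Tgfb1 was 1.34, 1.18 and 1.30 in SDS, against 2.87, 2.26, 2.10, 2.57 and 1.83 in controls. All 3 SDS libraries lay below all 5 controls, with a mean log2 ratio of 0.35 ± 0.10 in SDS (SD, n = 3) and 1.20 ± 0.25 in controls (SD, n = 5), a difference of -0.86 (exact permutation p = 0.0357, adjusted 0.250). Neither ratio passed after adjustment, which this design could hardly allow: at the smallest possible p, most of the 14 ratios would have to reach it together. The other 12 ratios overlapped between the groups (adjusted exact permutation p = 0.929 each). Col3a1 to Col1a1 was 3.34, 2.54 and 3.12 in SDS, against 2.86, 2.15, 2.28, 3.16 and 2.64 in controls. Dcn to Lum was 4.30, 3.66 and 4.54 in SDS, against 4.68, 4.20, 3.86, 3.82 and 4.47 in controls. Over all 8 libraries the ratio of Col3a1 to Col1a1 thus stayed between 2.15 and 3.34 and that of Dcn to Lum between 3.66 and 4.68, whereas Postn to Col1a1 was 0.670, 0.259 and 1.90 in SDS, against 0.942, 0.611, 0.700, 0.886 and 0.668 in controls.

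**Figure D5:**
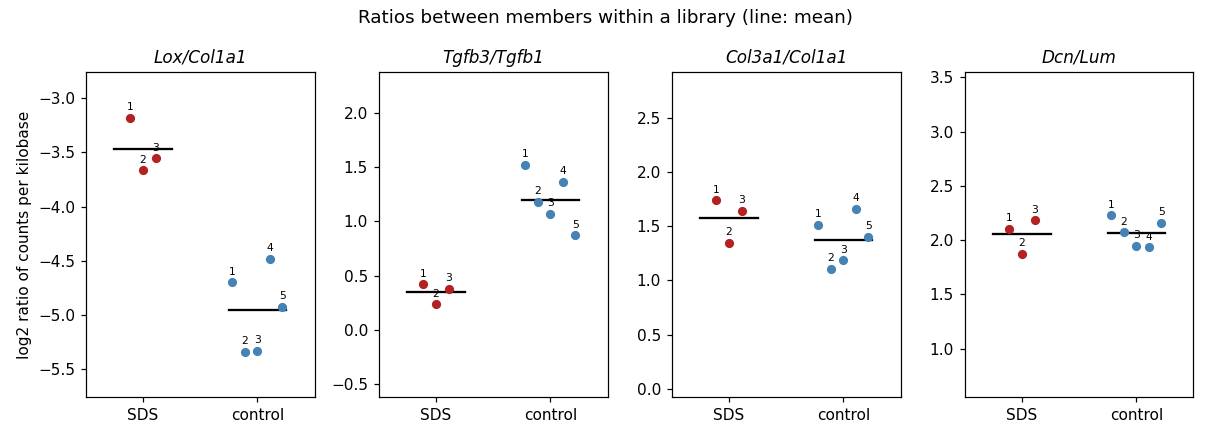
Log2 ratio of counts per kilobase (vertical) for 4 pairs of members in each SDS library (red, left) and control library (blue, right), with library numbers and group means as lines. Lox/Col1a1 is -3.67 or higher in all SDS libraries and -4.48 or lower in all controls, Tgfb3/Tgfb1 is lower in all SDS libraries, and Col3a1/Col1a1 and Dcn/Lum overlap.

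Of the 5 lists of genes around the members, 1 gene was called. Of 32 genes of collagen synthesis and processing, 0 were called in either direction. Pcolce2, an enhancer of procollagen C-proteinase, had 44.3, 46.6 and 37.8 CPM in SDS, against 60.3, 54.4, 55.4, 59.3 and 49.2 CPM in controls, so that the groups did not overlap (log2 fold change -0.38 ± 0.11, SE; edgeR adjusted p = 0.117). P4ha1 was also lower, at -0.33 ± 0.12 (SE; edgeR adjusted p = 0.179). Ppib was higher, with every SDS library above every control, at 0.40 ± 0.13 (SE; edgeR adjusted p = 0.139). Of 28 genes of TGF-beta activation and signaling, 0 were called. Itgb6, an epithelial integrin chain that activates TGF-beta, came nearest, with 6.99, 7.66 and 7.01 CPM in SDS, against 11.7, 9.73, 10.9, 11.1 and 12.5 CPM in controls (log2 fold change -0.63 ± 0.13, SE; edgeR adjusted p = 0.0574). Smad3, a transducer of TGF-beta signals, had a log2 fold change of -0.64 ± 0.16 (SE; edgeR adjusted p = 0.0832). Lrrc32 went the other way, at 1.06 ± 0.35 (SE; edgeR adjusted p = 0.158).

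Among 12 PDGF ligands and collagen receptors, 1 was called, lower in SDS. This was Pdgfa, a ligand of the receptor encoded by Pdgfra, with 14.97, 14.9 and 15.4 CPM in SDS, against 24.2, 23.4, 22.3, 27.6 and 23.5 CPM in controls. The 3 SDS libraries were almost level and all lay below the controls, at a log2 fold change of -0.68 ± 0.10 (SE; edgeR adjusted p = 0.0309). The call was lost without SDS 1 (adjusted p = 0.0742) and without SDS 2 (adjusted p = 0.158), at nearly the same fold, and it held in 9 of 16 alternatives. Pdgfa therefore did not share the wide spread of the members between SDS 2 and SDS 3. In the same list Pdgfc was lower, at -0.50 ± 0.16 (SE; edgeR adjusted p = 0.154). Ddr1 was higher, at 0.40 ± 0.16 (SE; edgeR adjusted p = 0.220).

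Of 29 tested further fibroblast genes, 0 were called. Ly6a, which encodes the stem cell antigen Sca-1, had 158, 211 and 105 CPM in SDS, against 90.6, 99.7, 85.2, 92.5 and 83.8 CPM in controls (log2 fold change 0.80 ± 0.20, SE; edgeR adjusted p = 0.0837). Lamc3 and Efemp1 went the other way, with every SDS library below every control. Their log2 fold changes were -0.97 ± 0.35 and -0.45 ± 0.16 (SE; edgeR adjusted p = 0.187 and 0.181). The median of the 29 was -0.12. Of 23 tested further collagen chains, 0 were called, and their median log2 fold change was -0.45. At an unadjusted p under 0.05, 1 of the 23 was higher and 4 were lower, against 9.98% and 8.53% of all genes tested. The same counts, higher and lower, were 2 and 2 of the 32 synthesis genes and 3 and 4 of the 28 TGF-beta genes. They were 1 and 3 of the 12 PDGF and receptor genes and 2 and 3 of the 29 fibroblast genes. Col23a1, a membrane-bound collagen, was at 0.61 ± 0.16 (SE; edgeR adjusted p = 0.102) and Col20a1 at -0.82 ± 0.22 (SE; edgeR adjusted p = 0.105). Col22a1 was at -1.32 ± 0.38 (SE; edgeR adjusted p = 0.120). SDS 3 was the lowest library in 25 of the 32 synthesis genes, 16 of the 28 TGF-beta genes, 7 of the 12 PDGF and receptor genes, 15 of the 29 fibroblast genes and 11 of the 23 collagen chains, against 23.4% of all genes tested.

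Markers of other cells also differed between these libraries. The 7 macrophage markers summed to 401, 787 and 185 CPM in SDS libraries 1 to 3, against 174 to 290.3 CPM in controls, and 7 of 7 were above every control in SDS 2 while 3 of 7 were below every control in SDS 3. The 6 suprabasal epithelial markers summed to 83607, 88366 and 151770.0 CPM in SDS, against 43004 to 137630.0 CPM in controls, highest in SDS 3. Most of that sum was Krt13 and Krt4, at 71974 and 70592 CPM in SDS 3. Krtdap and Sbsn were also highest in SDS 3. Ppl and Evpl were not, with 2415.5 and 1061 CPM there, against control ranges of 1249 to 2945 and 585 to 1356 CPM. The 10 skeletal muscle markers summed to 25944, 21093 and 14059 CPM in SDS, against 30139 to 41081 CPM in controls, so that all 3 SDS libraries lay below all 5 controls. Taken singly, 6 of the 10 showed this separation, against 6.89% of all genes tested, and Myh2, Myh4, Mylpf and Actn3 overlapped between the groups. Smooth muscle markers (8 genes) summed to 4255, 2558 and 1988 CPM in SDS, against 3013 to 8397 CPM in controls. Much of that sum was Des, with 2043, 1785 and 1058 CPM in SDS, against 2151 to 3131 CPM in controls. Myh11 had 742, 211 and 285 CPM in SDS, inside the control range of 179 to 1827 CPM. Only 3 of the 8 were below every control in SDS 3. Endothelial markers (10 genes) summed to 326, 284 and 168 CPM in SDS, against 182 to 381 CPM in controls. Markers of pericytes (6 genes) summed to 312, 251 and 210.1 CPM in SDS, against 320.2 to 415 CPM in controls. Adipocyte markers (11 genes) summed to 3505, 1106 and 1128 CPM in SDS, against 10211 CPM in control 4 and 1583 to 3459.8 CPM in the other 4 controls. Most of the sum in SDS 2 and SDS 3 was Car3, at 872 and 690 CPM, against 1342 to 3994.5 CPM in controls. Adipoq had 130, 4.46 and 36.5 CPM in SDS, against 1.59 to 407 CPM in controls. Cfd had 560, 29.5 and 112 CPM, against 5.50 to 1739 CPM. Only 3 of the 11 were below every control in SDS 3. Neutrophil markers (4 genes) summed to 40.5, 62.4 and 14.6 CPM in SDS, against 3.11 to 16.2 CPM in controls. Csf3r had 22.8, 45.4 and 0.542 CPM in SDS, against 0.337 to 0.811 CPM in controls. Cxcr2 had 17.3, 16.7 and 13.9 CPM in SDS, against 2.30 to 15.5 CPM in controls, and Ly6g and Mmp8 were too low to be tested. Basal epithelial markers (6 genes) summed to 10132, 8725 and 7319.6 CPM in SDS, against 2884 to 6599 CPM in controls. The basal genes did not move together: Krt14, called higher, had 5036, 4008 and 1094 CPM in SDS, against 325 to 822 CPM in controls (log2 fold change 2.55 ± 0.47, SE; edgeR adjusted p = 0.0493). Krt15, Itgb4 and Col17a1 had fitted changes of -0.55, -0.26 and -0.16, and the median of the 6 was 0.04. No list had a marker at 0 in all libraries, though some markers were too low to be tested. The part of these cells in the spread of the members was not tested.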

How the data were processed

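Whole esophagus RNA of WT mice was profiled in 8 libraries, 3 SDS and 5 control, grouped by the treatment in the labels. The authors deposited raw gene counts, with each gene's exon length in bases as another column. STAR 2.6.1c, Subread, bcl2fastq, FastQC and mm10 stand in the submitters' processing notes. The annotation release and strand setting were not given in the sources used here. Per the labels' protocols, the library kit was NEBNext Ultra II with poly(A) selection.

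In edgeR 4.0.16 (R 4.3.3), filterByExpr (minimum count 10, minimum total 15) kept 17179 genes, libraries were scaled by TMM, and a robust quasi-likelihood fit tested SDS over control, two-sided, with Benjamini-Hochberg adjustment over all genes tested and a threshold of 0.05. SE is the log2 fold change over the square root of F. CPM use TMM-scaled totals, and log2 CPM a prior count of 2. DESeq2 1.42.0, limma-voom 3.58.1, other scalings and filters, a replicate block and each library left out were alternatives. Gene positions come from the deposited tables (mm10). The scripts were tested on simulated data. Beside members called or with the 10 smallest p-values, core members were named in full. The members, lists and named genes were chosen with earlier results of these data known.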

Additional observations from a re-analysis of the deposited data

Results flagged for a closer look

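Control 4 stood apart from the other controls in 5 of 72 values tested, by the gap to its nearest neighbor relative to the range of the controls. Col3a1 had 1038 CPM in control 4, Col5a2 129.1 CPM and Lox 7.198 CPM, each the highest of the 5 controls. In the same library the adipocyte marker sum was 10210 CPM and the mesothelium marker sum 52.55 CPM. Chance alone marks about 1 in 20 groups when the values are independent. These 72 values come from the same 5 controls and are not independent, so 5 of 72 cannot be judged against that rate. Without control 4, 33 members had a fitted change above 0 and their median log2 fold change was 0.32, against 27 members and 0.12 with all 8 libraries.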

How the results depend on the processing

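No member was called with other scalings (RLE, upper quartile, TMM without muscle, member and top 50 genes), with no filter, with 1 CPM in 3 libraries, by limma-voom or without SDS 1, SDS 2 or any single control. DESeq2 called 1 member, and leaving out single libraries gave between 0 and 3. Over all genes, 107 higher and 73 lower became 859 and 751 with DESeq2 and 71 higher with limma-voom; leaving out single libraries gave between 4 and 879 higher and between 0 and 343 lower.

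With limma-voom 16 members, not 27, were above 0, with a median of -0.08. Among the 20 members named in full its sign turned for Col1a1 (-0.16), Col1a2 (-0.18), Tnc (-0.12) and Pdgfra (-0.0541), and Col3a1 was 0.048. Leaving out single libraries, log2 fold changes ran from -0.77 to 1.44 for Col1a1, -0.65 to 0.96 for Col1a2, -0.43 to 1.48 for Col3a1, -0.98 to 0.16 for Col6a3, -0.20 to 0.67 for Col12a1, -0.19 to 0.91 for Eln, -0.43 to 1.40 for Fbn1, -0.008 to 0.25 for Dcn, -0.0824 to 0.34 for Lum, -0.21 to 1.11 for Fn1, -0.60 to 0.26 for Postn, -0.14 to 1.04 for Tnc, -0.22 to 0.33 for Pdgfra, -0.68 to 0.14 for Pdgfrb.

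Same-numbered libraries deviated together with correlations of 0.186, 0.181 and 0.0734, and SDS 1 correlated best with control 4 (0.519). The labels name no pairing, and these correlations cannot tell whether the numbers pair the libraries. With the replicate number as a block (replicates 1 to 3), 0 genes were called higher and 0 lower, Col1a2 was -0.086, Pdgfra -0.0836, and the log2 ratio of Tnc to Col1a1 0.21. Differences in 10 log2 ratios between members changed sign as single libraries were left out: Col1a1/Col1a2 from -0.28 to 0.30, Col5a1/Col1a1 from -0.41 to 0.11, Col5a2/Col1a1 from -0.0256 to 0.54, Col12a1/Col1a1 from -0.46 to 1.05, Col14a1/Col1a1 from -0.60 to 0.67, Fn1/Col1a1 from -0.0893 to 0.86, Tnc/Col1a1 from -0.48 to 0.32, Postn/Col1a1 from -0.85 to 0.59, Eln/Col1a1 from -0.12 to 0.75, Dcn/Lum from -0.0802 to 0.0752. The causes were not tested. With 3 SDS libraries that differ this widely, the SE of a member's log2 fold change ran between 0.14 and 0.74, so the precision differed from member to member.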
